A study of Mus musculus with 17 samples.

Results

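The genes described here are 9 markers of neutrophils, followed in mouse liver: S100a8, S100a9, Clec4d, Clec4e, Csf3r, Retnlg, Ly6g, Camp and Ngp. They were found by matching the gene identifiers of the expression table to these 9 symbols, and all 9 were among its 52545 genes. Each of 17 libraries came from the non-tumorous liver of a different mouse, a C57BL/6J male 32 weeks old. The CLDN1 mAb group (6 mice) had received DEN (diethylnitrosamine, a liver carcinogen) once at 100 mg/kg in week 1, was fed CDA-HFD (a choline-deficient high-fat diet that causes fatty liver and scarring), and was injected intraperitoneally with 500 µg of an antibody against claudin-1 once per week for 16 weeks. The Vehicle Control group (6 mice) had the same DEN and CDA-HFD and was injected with PBS on the same schedule. The Regular diet group (5 mice) had no treatment, so that carcinogen, diet and injections cannot be told apart in comparisons with it. The question of the study was how gene expression in this liver disease model differs between antibody and vehicle, with untreated mice as the baseline.

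Neutrophils are short-lived white blood cells that mature in bone marrow, circulate, and enter inflamed tissue, including the fatty and scarred liver. Granule proteins such as those of Camp and Ngp are transcribed mainly by precursors in the marrow, so that mature cells carry the protein with little of its mRNA, whereas S100a8, S100a9, Csf3r and Retnlg are transcribed in mature cells. Ly6g encodes the surface protein by which mouse neutrophils are sorted. Clec4d and Clec4e encode C-type lectin receptors for microbial and dying-cell glycolipids that are also made by monocytes and macrophages.

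The 9 genes lie on 6 chromosomes (mm10). S100a8 (chromosome 3, 90668978 to 90670035) and S100a9 (chromosome 3, 90692632 to 90695721) are 22.6 kb apart, and Clec4d (chromosome 6, 123262111 to 123275265) and Clec4e (chromosome 6, 123281789 to 123289870) are 6.5 kb apart, with 0 protein-coding genes between the members of either pair. Camp (chromosome 9, 109847379 to 109849617) and Ngp (chromosome 9, 110419747 to 110423012) are 570.1 kb apart with 8 protein-coding genes between them. Csf3r (chromosome 4, 126024550 to 126044440), Retnlg (chromosome 16, 48872621 to 48874496) and Ly6g (chromosome 15, 75155240 to 75159126) stand alone. No other gene of the annotation overlapped any of the 9.

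The 250 bases upstream of the start site are shown for the neighbouring lectin genes, which had the largest fold changes against Regular diet among the tested members, for the neighbouring S100 genes, which varied together between mice, and for Ngp, a granule gene that ranged widely within each group. Each is written 5′ to 3′ on the gene's own strand, upstream of the RefSeq start on GRCm38.p6, with matches to 4 motifs in capitals. The gene coordinates above come from another annotation, GENCODE, and the windows of S100a8 and Ngp reach past the gene starts given there. The TATA match of S100a8 and 1 of the 2 C/EBP matches of Ngp lie in that stretch.
Clec4d (chr6:123261857-123262106, plus strand): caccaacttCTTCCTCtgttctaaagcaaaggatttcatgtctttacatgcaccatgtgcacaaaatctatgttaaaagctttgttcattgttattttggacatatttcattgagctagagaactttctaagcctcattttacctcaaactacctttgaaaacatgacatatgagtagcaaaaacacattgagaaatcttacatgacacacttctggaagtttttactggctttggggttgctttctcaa
Clec4e (chr6:123289872-123290121, minus strand): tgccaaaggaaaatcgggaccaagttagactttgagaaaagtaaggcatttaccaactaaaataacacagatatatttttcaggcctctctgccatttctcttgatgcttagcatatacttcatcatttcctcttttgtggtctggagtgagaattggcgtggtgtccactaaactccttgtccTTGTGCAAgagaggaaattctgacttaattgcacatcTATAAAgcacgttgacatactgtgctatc
S100a8 (chr3:90668821-90669070, plus strand): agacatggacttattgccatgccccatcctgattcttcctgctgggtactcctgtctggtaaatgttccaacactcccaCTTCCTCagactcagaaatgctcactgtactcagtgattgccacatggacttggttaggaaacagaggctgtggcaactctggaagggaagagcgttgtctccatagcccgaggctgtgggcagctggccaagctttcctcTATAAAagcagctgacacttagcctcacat
S100a9 (chr3:90695722-90695971, minus strand): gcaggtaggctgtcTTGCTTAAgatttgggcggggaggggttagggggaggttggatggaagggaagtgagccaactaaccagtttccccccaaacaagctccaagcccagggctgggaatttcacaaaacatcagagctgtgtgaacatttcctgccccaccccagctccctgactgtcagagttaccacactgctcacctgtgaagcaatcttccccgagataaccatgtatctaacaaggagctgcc
Ngp (chr9:110419558-110419807, plus strand): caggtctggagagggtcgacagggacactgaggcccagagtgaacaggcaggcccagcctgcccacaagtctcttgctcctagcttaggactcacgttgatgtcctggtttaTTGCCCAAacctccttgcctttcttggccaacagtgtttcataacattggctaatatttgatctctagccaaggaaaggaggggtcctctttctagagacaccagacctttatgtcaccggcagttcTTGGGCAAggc
The motifs searched on both strands were TTGCNNAA for C/EBP factors, GAGGAAG for PU.1 and TTCNNNGAA for STAT factors, which all take part in neutrophil development or signalling, and the TATA box TATAAA. They occurred in 9.56%, 10.6%, 7.02% and 12.4% of 32851 upstream windows of this length. Clec4d and S100a8 held a PU.1 match, and S100a8 a TATA match as well. Clec4e held a C/EBP and a TATA match, S100a9 held 1 C/EBP match and Ngp 2. Neither pair of neighbours shared a match. Of the members not shown, Csf3r held a PU.1 match, Retnlg a C/EBP match, Ly6g matches to C/EBP, PU.1 and TATA, and Camp none of the 4.

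Values are the deposited normalized counts, which do not add up to a fixed total. The deposited totals ran from 29.7 to 74.6 M, and the estimated depth, which takes the step between low values as 1 fragment, ran from 27.7 to 59.5 M fragments per library. In the CLDN1 mAb, Vehicle Control and Regular diet groups the deposited totals were 39.9 ± 3.43, 35.4 ± 5.53 and 54.8 ± 11.1 M (SD, n = 6, 6 and 5). A gene was tested where its value reached at least 10 in 5 or more libraries (18624 genes, 7 of the 9), with limma on log2(value + 1) and adjustment over all 18624 genes. A fold change on this scale understates the change of low genes. Regular diet 1 stood apart with the highest total and, among its group, the highest values of S100a8, S100a9, Clec4d, Csf3r, Camp and Ngp. Vehicle Control 3, 4 and 6 had the 3 lowest totals of all libraries, 29.7 to 31.3 M.

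Clec4d and Clec4e, the lectin receptors, were low in Regular diet livers and far higher in both groups on DEN and CDA-HFD. Csf3r, S100a8, S100a9 and Retnlg were higher as well, by less. The surface marker Ly6g stayed near the lower limit of these libraries in most mice. Of the granule genes, Camp did not reach the level needed for testing, and Ngp was tested but ranged widely within each group. Between CLDN1 mAb and Vehicle Control livers, 0 of 7 genes passed the test, as did 0% of all genes tested.

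**Figure D1:**
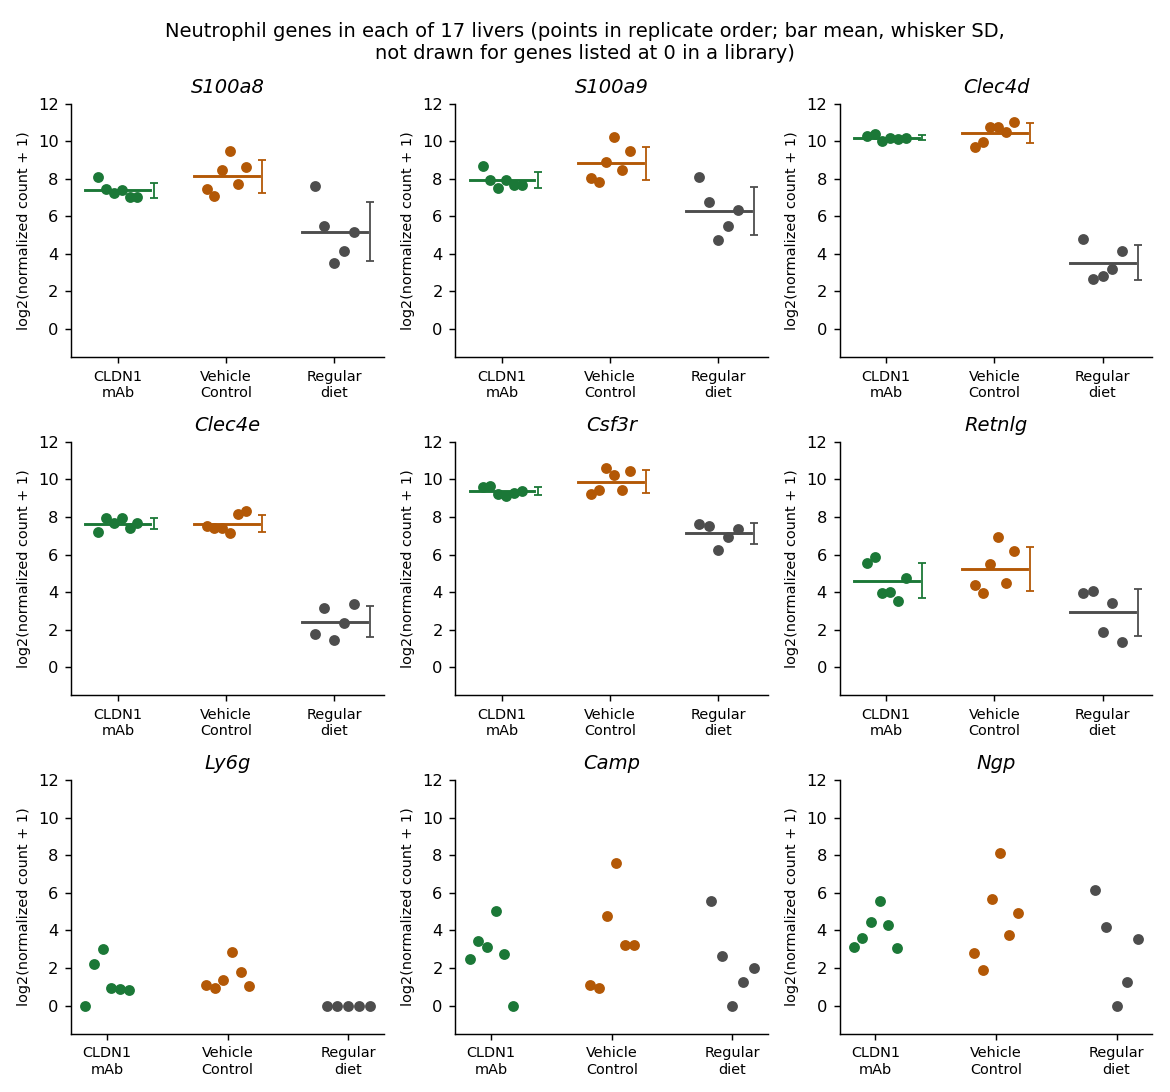
Level of each of the 9 genes in every liver as log2(normalized count + 1), with CLDN1 mAb at the left, Vehicle Control in the middle and Regular diet at the right of each panel; bars are means and whiskers SD, left out for the 3 genes listed at 0 in a library. Clec4d, Clec4e and Csf3r are separated from Regular diet in all mice on DEN and CDA-HFD, whereas Camp and Ngp overlap between all groups.

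Clec4d encodes a receptor that pairs with the product of Clec4e. Its lowest, median and highest normalized counts were 1026, 1159 and 1350 in CLDN1 mAb livers and 825, 1566 and 2068 in Vehicle Control livers. In the 5 Regular diet livers it was at 27.02, 5.25, 6.13, 8.26 and 16.8, from 4 to 11 estimated fragments per library. Every mouse on DEN and CDA-HFD was thus above every Regular diet mouse, while the CLDN1 mAb values lay within the range of the Vehicle Control values. Vehicle Control exceeded Regular diet by a log2 fold change of 6.91 ± 0.33 (SE; limma adjusted p = 1.16e-10), which ranked 20 from the top of the 18624 genes. For CLDN1 mAb against Regular diet it was 6.66 ± 0.33 (limma adjusted p = 2.19e-10).

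Clec4e encodes Mincle, the receptor for mycobacterial and dying-cell glycolipids. It ran from 147 to 248 in CLDN1 mAb livers (median 204) and from 143 to 313 in Vehicle Control livers (median 175). In Regular diet livers it was at 2.46, 7.87, 1.75, 4.13 and 9.17, which were 1 to 6 estimated fragments. The groups on DEN and CDA-HFD were again clear of Regular diet and overlapped each other. Its difference was a log2 fold change of 5.23 ± 0.33 for Vehicle Control against Regular diet (limma adjusted p = 1.82e-09; rank 104) and 5.23 ± 0.33 for CLDN1 mAb against Regular diet (limma adjusted p = 3.12e-09). Because the Regular diet values of both lectin genes rest on so few fragments, the size of these folds depends on the pseudocount: with 10 in place of 1, they were 6.03 and 3.83 for Clec4d and Clec4e in Vehicle Control against Regular diet.

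Csf3r encodes the receptor for G-CSF, the cytokine that drives neutrophil production. Its lowest, median and highest values were 557, 635 and 794 in CLDN1 mAb livers and 593, 939 and 1551 in Vehicle Control livers. Regular diet livers had 197, 181, 76.1, 121 and 163. No mouse on DEN and CDA-HFD overlapped the Regular diet group, and 3 livers of the Vehicle Control group (replicates 3, 4 and 6, from 1192 to 1551) stood above the other 9 mice on DEN and CDA-HFD, which ended at 794. On the log2 scale the fold change was 2.75 ± 0.28 for Vehicle Control against Regular diet (limma adjusted p = 3.26e-07) and 2.23 ± 0.28 for CLDN1 mAb against Regular diet (limma adjusted p = 5.34e-06).

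S100a8 and S100a9 encode the 2 subunits of calprotectin, the calcium-binding protein that fills the neutrophil cytosol. S100a8 ran from 130 to 274 in CLDN1 mAb livers (median 160) and from 133 to 702 in Vehicle Control livers (median 284). In Regular diet livers it was at 194, 43.3, 10.5, 16.5 and 35.1. Regular diet 1 alone reached the range of the other groups, and the remaining 4 Regular diet livers lay below all 12. The log2 fold change of S100a8 was 2.95 ± 0.56 for Vehicle Control against Regular diet (limma adjusted p = 0.00029) and 2.196 ± 0.563 for CLDN1 mAb against Regular diet (limma adjusted p = 0.00474), or 3.56 and 2.80 without Regular diet 1.

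S100a9 ran from 183 to 414 in CLDN1 mAb livers (median 226) and from 229 to 1182 in Vehicle Control livers (median 413). In Regular diet livers it was at 268, 106, 25.4, 44.0 and 81.0. The overlap was again through Regular diet 1. The log2 fold change of S100a9 was 2.54 ± 0.50 for Vehicle Control against Regular diet (limma adjusted p = 0.000383) and 1.64 ± 0.50 for CLDN1 mAb against Regular diet (limma adjusted p = 0.0146). The second call was lost with quantile normalization (1.04, limma adjusted p = 0.0932) and without Regular diet 3 (1.25, limma adjusted p = 0.051).

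Retnlg encodes a resistin-like secreted protein of mature neutrophils. It ran from 10.7 to 56.9 in CLDN1 mAb livers (median 20.2) and from 14.3 to 123 in Vehicle Control livers (median 32.6). In Regular diet livers it was at 14.7, 15.7, 2.63, 9.63 and 1.53. All 3 groups overlapped, with 3 of 6 CLDN1 mAb and 5 of 6 Vehicle Control livers above every Regular diet liver. Its log2 fold change was 2.31 ± 0.63 for Vehicle Control against Regular diet (limma adjusted p = 0.0054) and 1.68 ± 0.63 for CLDN1 mAb against Regular diet (limma adjusted p = 0.0436). This second call did not hold without any one of CLDN1 mAb 1, 2 or 6 or Regular diet 3, 4 or 5, where the limma adjusted p was 0.0527 to 0.131, nor with a pseudocount of 10, with no filter or with quantile normalization (0.0819 to 0.238).

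Ngp encodes a cystatin-related protein of the specific granules. It was at 7.65, 11.1, 20.7, 46.3, 18.9 and 7.22 in CLDN1 mAb livers and at 5.84, 2.69, 50.2, 276, 12.54 and 29.6 in Vehicle Control livers. Regular diet livers had 71.2, 17.1, 0, 1.38 and 10.7. In each group 1 liver stood far above the rest, and the groups overlapped throughout. For Ngp the log2 fold change was 1.49 ± 1.07 for Vehicle Control against Regular diet (limma adjusted p = 0.261) and 0.98 ± 1.07 for CLDN1 mAb against Regular diet (limma adjusted p = 0.503).

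Camp encodes cathelicidin, an antimicrobial peptide of the same granules. It was at 4.59, 9.89, 7.68, 31.5, 5.75 and 0 in CLDN1 mAb livers, at 1.17, 0.90, 25.9, 188, 8.36 and 8.22 in Vehicle Control livers, and at 46.7, 5.25, 0, 1.38 and 3.06 in Regular diet livers. CLDN1 mAb 4, Vehicle Control 4 and Regular diet 1, the livers that were highest in Ngp, were also highest in Camp. Camp did not reach the level needed for testing. With no filter it did not pass in any comparison (limma adjusted p of 0.511 for Vehicle Control against Regular diet and 0.843 for CLDN1 mAb against Regular diet).

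Ly6g was at or near 0 in every group. It was at 0, 3.71, 6.92, 0.93, 0.82 and 0.80 in CLDN1 mAb livers and at 1.17, 0.90, 1.55, 6.16, 2.51 and 1.10 in Vehicle Control livers, and it was listed at 0 in all 5 Regular diet livers. These were at most 9 and 10 estimated fragments in a library. All 6 Vehicle Control livers and 5 of 6 CLDN1 mAb livers were thus above every Regular diet liver as listed. In a single library a count of 0 allows up to 3 fragments, or 2.63 to 7.37 normalized counts in the Regular diet libraries. The size of the difference was therefore not resolved at this depth, and no fold is given. With no filter on low values, Ly6g passed in Vehicle Control against Regular diet (limma adjusted p = 0.0165) and in CLDN1 mAb against Regular diet (limma adjusted p = 0.0479), tests that take the listed zeros at face value. Ly6g belongs to a family of related genes, and whether reads were split between them was not tested.

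Set side by side, 6 of the 7 tested genes passed as higher in Vehicle Control than in Regular diet livers, where 29.8% of all 18624 genes passed as higher. For CLDN1 mAb against Regular diet 6 of the 7 also passed as higher, against 24.8% of all genes. Both comparisons share the Regular diet libraries. Groups did not overlap for 3 of the 7 (Clec4d, Clec4e and Csf3r) in Vehicle Control against Regular diet, where 19.1% of all genes were higher with no overlap, and for the same 3 in CLDN1 mAb against Regular diet (18.6%). The median log2 fold change of the 7 was 2.751 and 2.196, beside 0.04 and 0.005 over all genes tested. The 2 members under the filter are not in these counts. With each library scaled to the same total, the median of all genes in Vehicle Control against Regular diet moved to 0.65, and all 6 calls held. That scaling raises fold changes in the direction of the calls, so it could hardly lose them. Quantile normalization moved the median there to -0.13, and all 6 calls held. In CLDN1 mAb against Regular diet 4 of the 6 held with quantile normalization, and Retnlg and S100a9 did not.

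**Figure D2:**
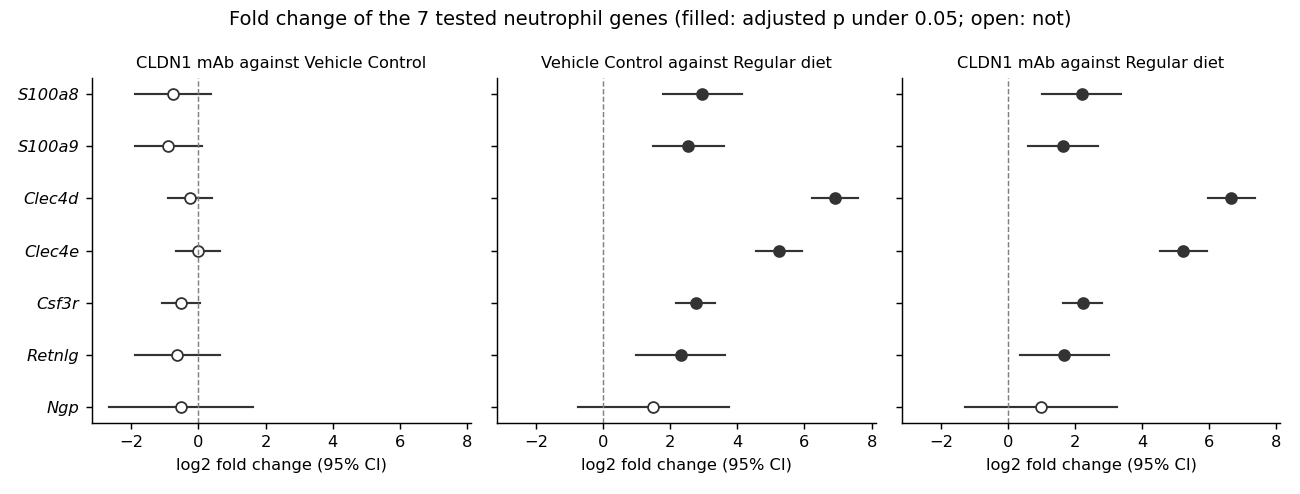
Log2 fold change with 95% confidence interval of the 7 tested genes for CLDN1 mAb against Vehicle Control (left), Vehicle Control against Regular diet (middle) and CLDN1 mAb against Regular diet (right); filled points passed an adjusted p of 0.05. All intervals in the left panel include 0, and Clec4d and Clec4e stand furthest to the right in the other panels.

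Between CLDN1 mAb and Vehicle Control livers 0 of the 7 genes passed by limma, where 0% of all 18624 genes passed and the smallest adjusted p was 0.659. At an unadjusted p under 0.05 there were 0 of the 7 and 1391 (7.47%) of all genes. The log2 fold change was -0.90 ± 0.48 for S100a9, -0.76 ± 0.54 for S100a8, -0.64 ± 0.60 for Retnlg, -0.52 ± 0.26 for Csf3r, -0.51 ± 1.02 for Ngp, -0.25 ± 0.32 for Clec4d and -0.01 ± 0.31 for Clec4e. All 7 estimates were below 0, as were 55.7% of those of all genes. The 95% intervals show what was not resolved: -1.91 to 0.10 for S100a9, -1.08 to 0.03 for Csf3r, -0.92 to 0.41 for Clec4d and -0.67 to 0.65 for Clec4e. The coefficient of variation of Clec4d was 9.51% in CLDN1 mAb and 32.4% in Vehicle Control livers, and that of S100a9 33.9% and 67.7%, and this spread was not tested.

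Library codes in the labels fall into a run from 25 to 30 and a run from 36 to 42, each with 3 CLDN1 mAb and 3 Vehicle Control livers, and Regular diet had codes 31 to 35. What the codes stand for is not stated. In the first run S100a9 averaged 281 ± 120 in CLDN1 mAb and 323 ± 135 in Vehicle Control livers (SD, n = 3 each), and in the second 218 ± 25.9 and 746 ± 418. Clec4d averaged 1202 ± 164 and 1180 ± 468 in the first run, and 1139 ± 35.2 and 1738 ± 324 in the second. In the second run the CLDN1 mAb values of S100a9, Clec4d, S100a8 and Csf3r lay below all Vehicle Control values. Those of Clec4e, Retnlg and Ngp overlapped them, and in the first run all of these genes overlapped. With 3 livers against 3, groups separate easily, and the share of all genes that did so was not counted. The split by run was made after the data were seen. Within each run 0 of the 7 genes passed by limma, as did 0 of all 18624 genes. For Regular diet the codes and the group cannot be told apart.

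The members differed in how far they stood above Regular diet, given here as a description, since the pairs were chosen after the fold changes were seen. In each liver the log2 value of one gene was subtracted from that of another. Clec4d minus S100a8 averaged 2.81 ± 0.35 in CLDN1 mAb, 2.31 ± 0.57 in Vehicle Control and -1.65 ± 1.07 in Regular diet livers (SD, n = 6, 6 and 5). Clec4d minus Csf3r averaged 0.82 ± 0.14 in CLDN1 mAb, 0.55 ± 0.29 in Vehicle Control and -3.61 ± 0.78 in Regular diet livers. Clec4d minus Clec4e averaged 2.54 ± 0.30 in CLDN1 mAb, 2.79 ± 0.56 in Vehicle Control and 1.11 ± 1.27 in Regular diet livers. All 3 differences rest on the few fragments of Clec4d, and the last also of Clec4e, in Regular diet livers.

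Levels per kilobase of exon set the genes on roughly 1 scale within a group. The length was that of all annotated exons of a gene together, which can exceed the transcript expressed. The order of the genes and the ratios between them rest on that choice. In CLDN1 mAb livers Clec4d was highest at 732 ± 69.6 normalized counts per kb, then S100a9 at 478 ± 162, S100a8 at 246 ± 77.1 and Csf3r at 184 ± 27.5. In Vehicle Control livers S100a9 at 1023 ± 693 and Clec4d at 913 ± 295 did not differ beyond their spread, and S100a8 stood at 473 ± 303 and Csf3r at 283 ± 116. In Regular diet livers S100a9 was highest at 201 ± 185, then S100a8 at 86.3 ± 110 and Csf3r at 40.9 ± 13.6, and Clec4d was at 7.94 ± 5.77. Clec4d was thus among the highest 2 of the 9 in both groups on DEN and CDA-HFD and among the lowest 3 in Regular diet livers. The level of S100a9 per kb was 1.94 ± 0.17 times that of S100a8 in CLDN1 mAb livers, 2.15 ± 0.23 times in Vehicle Control livers and 2.98 ± 0.67 times in Regular diet livers. This ratio was chosen after the values were seen and is given as a description.

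S100a8 and S100a9 varied together from liver to liver. Over the 12 mice on DEN and CDA-HFD, Pearson's r was 0.98 and Spearman's rho 0.95 (permutation p = 1e-05 for r, the smallest that the 100000 resamples can give; adjusted over 21 pairs 0.00021), and without the 2 livers farthest from the median of S100a8 r was 0.95. Within CLDN1 mAb livers r was 0.95 (exact permutation p = 0.0139, n = 6) and within Vehicle Control livers 0.98 (exact permutation p = 0.00139, n = 6). Among the 21 pairs of the 7 tested genes, 13 passed over all 12 mice. The count fell without Vehicle Control 3, 4 and 6, which stood apart in Csf3r. Over the other 9 mice, a choice made after the values were seen, 1 of 21 pairs passed, S100a8 with S100a9 (r = 0.93, exact permutation p = 0.00061, adjusted p = 0.0128). Fewer mice also make it harder to pass. For Csf3r with Retnlg, r was 0.82 over the 9 mice (exact permutation p = 0.00722, adjusted p = 0.0758). Within CLDN1 mAb livers it was 0.93 (exact permutation p = 0.0139) and within Vehicle Control livers 0.79 (exact permutation p = 0.0972). For Clec4d with Csf3r no pooled value is given; r was 0.78 within CLDN1 mAb livers (exact permutation p = 0.0639, n = 6), 0.88 within Vehicle Control livers (exact permutation p = 0.0278, n = 6) and 0.55 over the 9 mice (exact permutation p = 0.121). No pair with Clec4e passed, its neighbour Clec4d included (r from -0.15 to 0.29 over 12 mice).

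**Figure D3:**
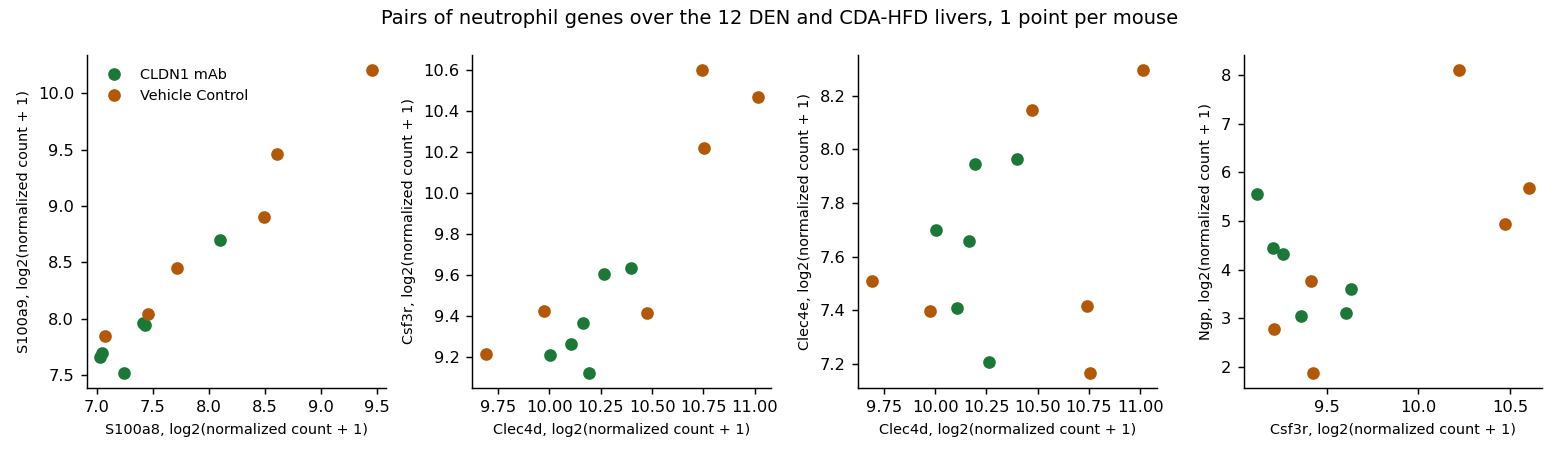
Pairs of genes over the 12 livers on DEN and CDA-HFD, 1 point per mouse on log2(normalized count + 1) axes that do not start at 0, CLDN1 mAb and Vehicle Control in different colours. S100a8 and S100a9 fall along a line (r = 0.98), 3 Vehicle Control livers stand apart in Csf3r, and Clec4d and Clec4e show no common order (r = 0.29).

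Vehicle Control 3, 4 and 6 also differed in markers of other cells. The summed level of 8 hepatocyte markers, in units of 1000 normalized counts (k), was 429, 413 and 320 k in them, and from 713 to 1322 k in the other 9 livers on DEN and CDA-HFD. The summed level of 12 macrophage markers was 255, 216 and 251 k in them and from 62.0 to 178 k in the other 9. That of 5 B cell markers was 1.57, 1.41 and 1.59 k in them and 0.57 to 0.88 k in the other 9, while that of 10 monocyte markers was lower, at 39.1, 36.8 and 44.4 k against 47.3 to 69.1 k. Over each group most of the monocyte sum was Fn1, which hepatocytes also transcribe, so this sum does not stand for monocytes alone. The share of these differences in the values of Csf3r, Clec4d, S100a8 and S100a9 was not tested. In whole tissue, more cells of a type and more RNA per cell cannot be told apart.

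Genes most like the members over the 12 livers, by Pearson's r among 12854 genes with a mean of at least 50, are given as a description, each r followed by its value over the 9 livers other than Vehicle Control 3, 4 and 6. For Clec4d these were Dram1 (r = 0.97 and 0.92), Csf1r (0.97 and 0.91), which encodes the growth factor receptor of macrophages, and Agpat4 (0.96 and 0.90). For Csf3r they were Cd48 (0.98 and 0.92), Csf2rb2 (0.98 and 0.81), which encodes a receptor subunit of myeloid cells, and Rgs19 (0.98 and 0.94). S100a8 was nearest to S100a9 (0.98 and 0.93), then to Klrb1c (0.93 and 0.61) and Hilpda (0.93 and 0.52). After S100a8, S100a9 was nearest to Tbc1d8 (0.94 and 0.65) and Pfkp (0.93 and 0.67). For Retnlg the nearest was Lax1 (0.91 and 0.83), and for Ngp Slc22a12 (0.86 and 0.51). All points share the same libraries. Over the 12 livers Pearson's r with the deposited total was -0.81 for Csf3r, -0.80 for Clec4d, -0.70 for S100a9 and -0.67 for S100a8. It was -0.62 for Ngp, -0.53 for Retnlg, -0.41 for Camp, -0.07 for Ly6g and -0.06 for Clec4e. Spearman's rho was weaker, at -0.51 for Csf3r, -0.61 for Clec4d, -0.53 for S100a9 and -0.37 for S100a8. For Ngp, Retnlg and Camp rho was -0.49, -0.35 and -0.25, and for Ly6g and Clec4e 0.13 and -0.007.

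Related genes of the neutrophil were read in the same fit, where 29.8% of all genes passed as higher and 20.7% as lower in Vehicle Control against Regular diet, and 24.8% and 14.1% in CLDN1 mAb against Regular diet. Of 6 tested azurophil granule genes, which are transcribed by marrow precursors, 1 rose in Vehicle Control against Regular diet, Prss57, a serine protease (log2 fold change 3.98). Mpo, which encodes myeloperoxidase, averaged 4.1 in CLDN1 mAb, 27.2 in Vehicle Control and 10.1 in Regular diet livers, and Elane, which encodes neutrophil elastase, 8.6, 17.1 and 17.4, and neither passed (limma adjusted p = 0.343 and 0.46 for Vehicle Control against Regular diet). Of 12 tested specific granule genes and granule enzymes, 8 rose and 3 fell. With quantile normalization 6 of the 8 rises held, and Cd177 (1.04, adjusted p = 0.0809) and Mmp9 (0.63, adjusted p = 0.113) did not pass. Lcn2, an iron-carrier binding protein that hepatocytes also make, stood at 22732 ± 11045 in CLDN1 mAb, 18121 ± 2917 in Vehicle Control and 606 ± 662 in Regular diet livers (log2 fold change 5.82 for Vehicle Control against Regular diet). Mmp8, the neutrophil collagenase, rose by 3.66 and Lyz2, the lysozyme of myeloid cells, by 3.75. Ltf, which encodes lactoferrin, did not pass (1.496, limma adjusted p = 0.168). Those that fell were Wfdc21 (-2.68), Arg1 (-2.22), the urea cycle arginase of hepatocytes, and Ceacam1 (-1.79), an adhesion molecule also found on hepatocytes.

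Of 20 surface and mature neutrophil genes 15 were tested, of which 11 rose and 1 fell in Vehicle Control against Regular diet. Cxcr1, Stfa2, Stfa2l1, Stfa3 and BC100530 were below the level needed for testing. The last 4 of these were listed at 0 in all Regular diet livers. The count of rises therefore does not cover them. Adam8, a membrane protease, rose by 6.61, Itgam, an integrin chain of myeloid cells, by 4.88, Cxcr4, the marrow retention receptor, by 4.34, and Il1r2, the decoy receptor for interleukin-1, by 4.05. Cxcr2, the main chemokine receptor of mouse neutrophils, rose by 1.03 (limma adjusted p = 0.0114) but not with quantile normalization (0.23, adjusted p = 0.454). Its mean was 49.1 ± 8.7 in CLDN1 mAb, 83.0 ± 41.9 in Vehicle Control and 36.002 ± 6.21 in Regular diet livers. Fpr1, a receptor for bacterial peptides, fell by 0.94, a fall that was lost once all libraries were scaled to 1 total (-0.32, adjusted p = 0.47). The fall held with quantile normalization. Of the NADPH oxidase 5 genes were counted and all 5 rose, among them Cybb (2.95) and Ncf1 (2.24), which neutrophils and macrophages both use.

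Of 12 tested genes of recruitment, 9 rose in Vehicle Control against Regular diet and 3 did not pass. C5ar1, the receptor for the complement fragment that attracts neutrophils, rose by 5.24, Tnf by 4.56 and the chemokine gene Cxcl2 by 3.12. Cxcl1, another neutrophil chemokine gene, stood at 1446 ± 349 in CLDN1 mAb, 1564 ± 540 in Vehicle Control and 1192 ± 926 in Regular diet livers and did not pass (0.62, limma adjusted p = 0.169), nor did Il1b (0.24, limma adjusted p = 0.576). Csf3, which encodes the ligand of the Csf3r receptor, was below the level needed for testing, with group means of 0.3, 0.6 and 0.2 in CLDN1 mAb, Vehicle Control and Regular diet livers.

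The receptors and signalling partners of the lectins, of the G-CSF receptor (Csf3r) and of the S100 proteins were mostly higher. Of 16 genes, 15 rose and 1, Stat3, fell (-0.49) in Vehicle Control against Regular diet, the fall of Stat3 being lost at a common total (0.13, adjusted p = 0.654) and the rise of Ly96 with quantile normalization (-0.05, adjusted p = 0.867). In CLDN1 mAb against Regular diet 10 of the 16 rose and 6 did not pass. Fcer1g, the adaptor chain of the Clec4d and Clec4e receptors, rose by 3.13, the kinase gene Syk by 2.63 and the adaptor gene Card9 by 3.12, all in Vehicle Control against Regular diet. Tlr4, a receptor for calprotectin, rose by 1.66 there and did not pass in CLDN1 mAb against Regular diet (1.03, limma adjusted p = 0.0659), a difference that was not itself past the test for CLDN1 mAb against Vehicle Control (-0.63, limma adjusted p = 0.697). All 5 tested lectin relatives rose in both comparisons, Clec4a2 by 3.26 and Clec4n by 2.10 in Vehicle Control against Regular diet, but Clec4a1 lost its call in CLDN1 mAb against Regular diet with quantile normalization (0.54, adjusted p = 0.155).

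**Figure D4:**
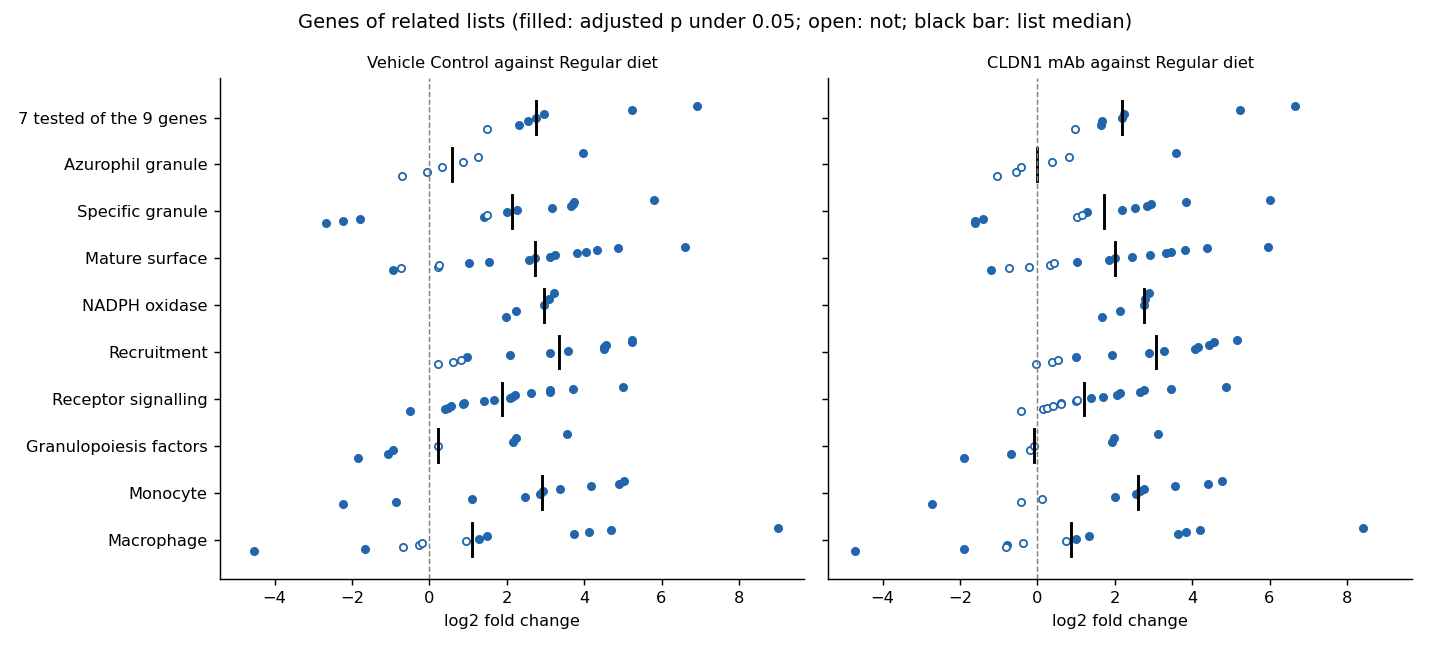
Log2 fold change of each tested gene in 10 lists for Vehicle Control against Regular diet (left) and CLDN1 mAb against Regular diet (right); filled points passed an adjusted p of 0.05 and black bars are list medians. All 5 oxidase genes plotted are filled and above 0 in both panels, and among 6 azurophil granule genes 1 is filled.

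Of 7 transcription factor genes of granulocyte formation, 3 rose and 3 fell in Vehicle Control against Regular diet. Runx1 rose by 3.56, Gfi1 by 2.25 and Spi1, which encodes PU.1, by 2.16. Cebpa (-0.94), Cebpb (-1.85) and Cebpe (-1.07) fell, and none of these 3 falls held at a common total (adjusted p from 0.137 to 0.27). At that scaling 1264 of all genes passed as lower, against 3853 without it. With quantile normalization 2 of the 3 falls held, and that of Cebpa did not.

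Markers of other cells moved in the same comparisons, and their part in the values of the members was not tested. Of 10 monocyte markers 8 rose and 2 fell in Vehicle Control against Regular diet, Cx3cr1 by 5.03 and Ccr2 by 4.18. The falls of Fn1 and Nr4a1 were lost at a common total (adjusted p = 0.473 and 0.137), and the rise of Ifitm6 with quantile normalization (adjusted p = 0.322). With quantile normalization the fall of Nr4a1 held and that of Fn1 did not. The summed level of the 10 was lower, with a median of 61.0 k in CLDN1 mAb, 50.5 k in Vehicle Control and 92.1 k in Regular diet livers, most of it from Fn1, which hepatocytes also transcribe and which averaged 55088 in CLDN1 mAb, 41892 in Vehicle Control and 77445 normalized counts in Regular diet livers. Of 12 macrophage markers 6 rose, 2 fell and 4 did not pass, with Gpnmb at 9.01 and Trem2 at 4.69, and with Clec4f, a marker of resident liver macrophages, at -1.67. The summed level of the 12 ran from 103 to 178 k in CLDN1 mAb, 62.0 to 255 k in Vehicle Control and 14.8 to 44.9 k in Regular diet livers, with none of the 12 at 0 in a whole group. Of 7 T and NK cell markers 6 rose in Vehicle Control against Regular diet, and their sum had a median of 0.82 k in CLDN1 mAb, 0.99 k in Vehicle Control and 0.29 k in Regular diet livers. Of 8 hepatocyte markers 7 fell, of which 6 held at a common total and 3 with quantile normalization, and their sum had a median of 1173 k in CLDN1 mAb, 686 k in Vehicle Control and 1588 k in Regular diet livers. Of 8 tested red cell and platelet markers 1 rose and 3 fell. At a common total 1 of the 3 falls held, and Hba-a1 and Hba-a2 did not pass (adjusted p = 0.189 and 0.186). All 3 falls held with quantile normalization. Clec4d, Clec4e and Csf3r are also transcribed by monocytes or macrophages. Values in whole liver do not place the RNA of any member, S100a8 and S100a9 included, in 1 cell type. For CLDN1 mAb against Vehicle Control 0 genes passed in any of these lists.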

How the data were processed

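RNA sequencing of liver from 17 mice was analysed from a single table. Its deposited signal per gene and library is a cuffnorm-normalized count (the table's own label), and the submitters' processing notes name Cufflinks 2.2.1 and mm10. Which aligner, strand setting and scaling were chosen is not given in the sources used here. Low values, up to 20 times the smallest step of a library, were whole multiples of that step in 97.7 to 98.2% of cases (tolerance 0.05 step), and the deposited total over the step gave the estimated fragments. A listed 0 may be an estimate that failed, and very small values stood in the way of recovering whole reads, so count models were not applied. Symbols were found for 52398 identifiers (99.7%). GENCODE on that build gave coordinates and exon lengths.

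Groups were taken from sample titles. Limma 3.58.1 in R 4.3.3 (trend) was fitted to log2(value + 1) with all 17 libraries and no covariate beside group, two-sided, with Benjamini-Hochberg adjustment over the 18624 genes with at least 10 in 5 or more libraries and a threshold of 0.05. P-values describe variation among these animals. Relations used two-sided permutation tests (100000 resamples, or exact for under 10 mice) in Python 3.11.15 with SciPy 1.17.1. The procedure was tested on simulated data. The members, the lists and the rule for named genes (the 9 members, a panel of 20 related genes, up to 3 genes of each list with the smallest p and 1 of the opposite direction, and the 3 genes most like each member) were chosen with earlier results of these data known. Further genes of the lists, such as Clec4f, Cebpa, Cebpb, Cebpe, Stat3, Fpr1 and the genes that fell, were named after their values were seen. Some genes of the lists and of the ranking by likeness are not reported here. Alternatives were other pseudocounts, filters and scalings, fits of the compared groups alone, a replicate or library code term, and each library left out.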

Additional observations from a re-analysis of the deposited data

Results flagged for a closer look

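In 10 of 26 checks of a gene within a group, the highest liver stood apart from its neighbour. Its gap, relative to the range of the group's normalized counts, was over the 95% limit of Dixon's test. That limit assumes normally distributed values, whereas these counts were not log-transformed, and the checks share livers. The number flagged is therefore a description and is not set against chance. Regular diet 1 was such a liver for S100a8 (194, the others 10.5 to 43.3), Camp (46.7, the others 0 to 5.25) and Ngp (71.2, the others 0 to 17.1). Its 11 red cell and platelet markers summed to 49.0 k (units of 1000 normalized counts), against 13.1 to 17.5 k in the other Regular diet livers. Its hepatocyte markers summed to 3446 k, against 1489 to 1760 k in the others, and its macrophage markers to 44.9 k, against 14.8 to 32.7 k. Its monocyte markers, a sum that over each group is mostly Fn1, which hepatocytes also transcribe, came to 39.2 k, against 75.8 to 110 k. Its deposited total was the highest of all.

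Vehicle Control 4 stood apart for Camp (188, the others 0.90 to 25.9), Ngp (276, the others 2.69 to 50.2) and Ly6g (6.16, the others 0.90 to 2.51). Its red cell and platelet sum was 15.4 k, against 4.63 to 7.44 k in the other Vehicle Control livers. Its monocyte sum, which over the group is mostly Fn1, was 36.8 k, against 39.1 to 62.3 k. Without Regular diet 1 and Vehicle Control 4 together, an alternative chosen after the values were seen, the same number of members passed in each comparison.

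CLDN1 mAb 4 stood apart for Camp (31.5, the others 0 to 9.89) and Ngp (46.3, the others 7.22 to 20.7), with a red cell and platelet sum of 6.27 k, inside the 5.10 to 9.30 k of the other CLDN1 mAb livers. CLDN1 mAb 1 stood apart for S100a8 (274, the others 130 to 172) and S100a9 (414, the others 183 to 248), with a red cell and platelet sum of 9.30 k, against 5.10 to 8.36 k in the others. What moved these livers was not tested.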

How the results depend on the processing

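The number of members that passed was 0 in CLDN1 mAb against Vehicle Control under all 24 alternatives, 5 to 7 in Vehicle Control against Regular diet and 4 to 6 in CLDN1 mAb against Regular diet (20 alternatives each). With the replicate number of the titles as a block, the counts were 0, 6 and 5, and Retnlg was lost in CLDN1 mAb against Regular diet (adjusted p = 0.0596). Same-numbered livers correlated between -0.344 and 0.656 over 16 pairs, 5 of them over 0.1, and the labels do not tie the numbers to a cage or day. Leaving out 1 library at a time gave 0, 6 and 4 to 6.

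No member call was lost in Vehicle Control against Regular diet. In CLDN1 mAb against Regular diet 12 of 138 values lost their call, all of S100a9 or Retnlg, and Retnlg was at 0.95 with a pseudocount of 10 (adjusted p = 0.0877) and 0.87 with quantile normalization (adjusted p = 0.238). In CLDN1 mAb against Vehicle Control, where no value passed, signs turned in 11 of 166. Clec4e was 0.12 with quantile normalization and from -0.11 to 0.12 with 1 library left out, and Ngp from -1.04 to 0.21 (0.21 without Vehicle Control 4, also when Regular diet 1 was left out with it). With library codes 25 to 30 alone, chosen after the data were seen, the log2 fold changes were 0.088 for Clec4d, 0.18 for Clec4e, 0.52 for Retnlg and 0.27 for Ngp. Of the 21 relations between members 13 passed, against 6 without the 2 farthest mice and 1 without Vehicle Control 3, 4 and 6. List counts moved by over 1.5 times in 24 of 360 recounts in each comparison with Regular diet, and the cause was not tested. Over all genes, Vehicle Control against Regular diet had 5547 higher and 3853 lower, 9369 and 1264 with the same total per library, and 4447 and 5223 with quantile normalization. Depth limits Ly6g, Camp, the Regular diet values of the lectin genes, and Ngp in the livers where it was lowest.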
